A study of Mus musculus with 10 samples.

Results

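The genes described here are 8 enzymes of heme synthesis and Slc25a38, the mitochondrial carrier of glycine, which is the substrate of the first enzyme. They were chosen by symbol, with earlier results of these data known. In the order of the pathway they are Alas1, Alas2, Slc25a38, Alad, Uros, Urod, Cpox, Ppox and Fech. All 9 were found among the 55414 Ensembl genes of the count table, and all 9 were among the 14669 genes with enough reads to be tested. The list does not hold every enzyme of the pathway. The 10 RNA sequencing libraries came from mouse spleen, from which macrophages had been taken with magnetic beads against F4/80, a surface protein of mature macrophages. Of these, 5 libraries carried the genotype label C57BL/6N (WT) and 5 the label Fpr2KO, from Fpr2-/- mice that lack formyl peptide receptor 2. No treatment is named in the labels. The age and sex of the mice, the strain background of the knockout, how many animals went into a library and which part of Fpr2 was removed remain unstated. Whether each replicate was a different mouse is not stated in the labels, so p-values cover only the spread among these libraries, and that spread may be technical.

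Heme is an iron porphyrin that carries oxygen in haemoglobin and electrons in cytochromes. Its synthesis starts in the mitochondrion, where 5-aminolevulinate synthase joins glycine to succinyl-CoA, goes on through several enzymes of the cytosol, and returns to the mitochondrion, where ferrochelatase inserts iron. The first enzyme has a pair of genes: Alas1 is expressed in all tissues and is repressed by heme, and the X-linked Alas2 serves erythroid cells, whose heme demand is by far the greatest. In the mouse spleen, red pulp macrophages break down heme from aged red cells, and erythroblasts mature while attached to macrophages.

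Fpr2 itself had between 325 and 574 reads in each WT library and 0 reads in each Fpr2KO library, which matches the labels. Library totals lay between 15865820 and 19060188 counts. Y-linked Ddx3y had between 2300 and 3297 reads and Xist at most 3 reads in any library. Macrophage markers were abundant in both groups: Adgre1, which encodes F4/80, had a normalised read count, in CPM, of 524 ± 60.1 in the WT group and 524.5 ± 63.4 in the Fpr2KO group (SD, n = 5). The isolates also held RNA of other cells, since 8 B cell markers together summed to between 2560 and 4470 CPM per library. In such bulk RNA, fewer cells of a type and less RNA per cell cannot be told apart.

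The comparison asked how the members differed in splenic macrophage isolates without Fpr2. Of the 9 members, 8 had higher estimates in Fpr2KO, as 53.2% of all genes did, and Alas1 did not. In the edgeR quasi-likelihood test, 0 members passed a Benjamini-Hochberg false discovery rate (FDR) of 0.05, where 0.0682% of all genes did. At an unadjusted p under 0.05, 8 of the 9 were higher by edgeR and 0 were lower, beside 4.88% and 4.92% of all genes in these directions. The members were chosen with earlier results known, so these counts describe them and are no independent test. DESeq2 called 3 members, Alad, Urod and Cpox, beside 1.26% of all genes, and limma voom called 0, beside 0.0614%. The median log2 fold change of the 9 members was 0.54, and that of all genes tested was 0.01. Estimates ran from -0.07 for Alas1 to 0.94 for Alas2. With no filter on low counts edgeR also called Alad, Urod and Cpox, beside 0.217% of all genes. Without WT replicate 5, Alad and Cpox passed the FDR by edgeR, beside 0.342% of all genes, and without Fpr2KO replicate 2 Alad did, beside 0.174%.

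**Figure D1:**
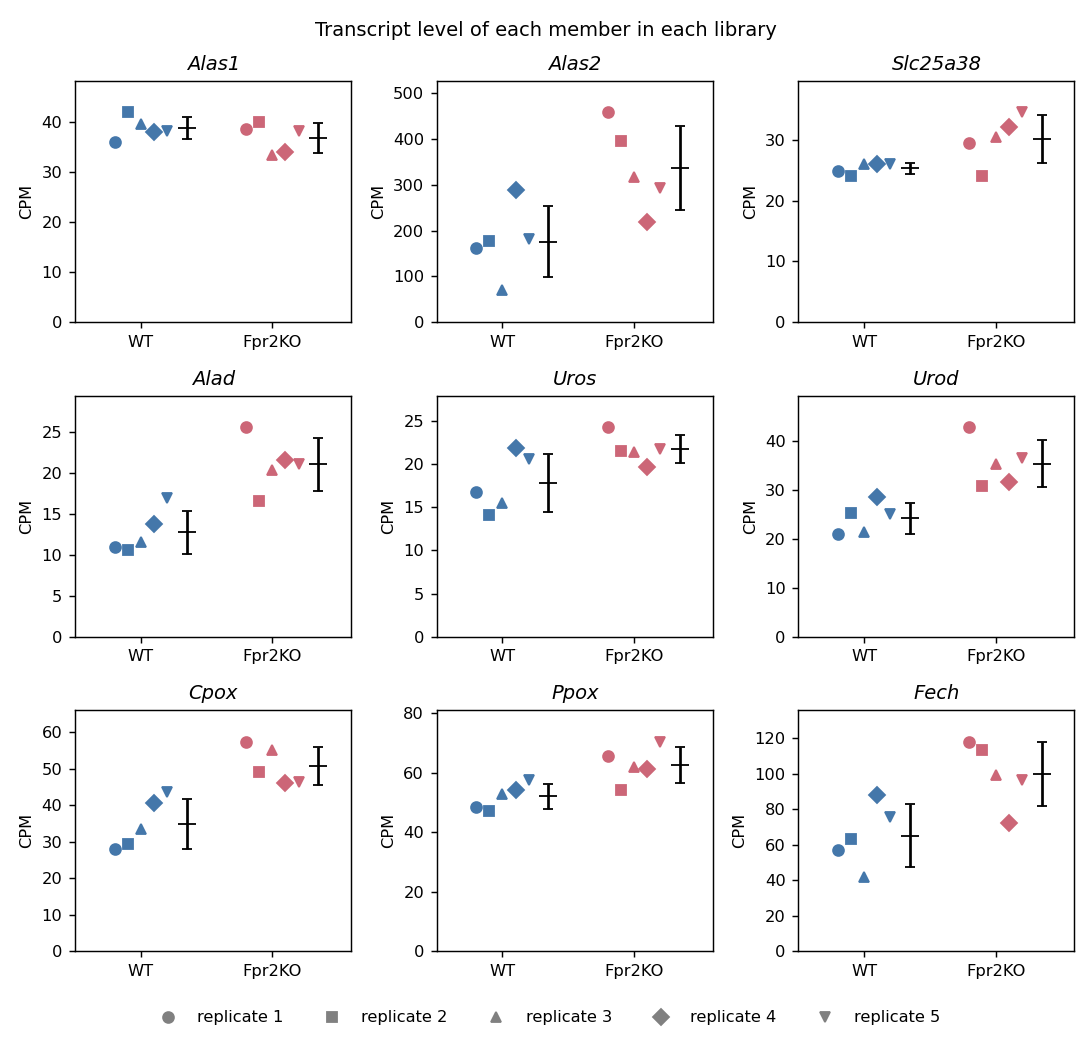
Transcript level in CPM (linear axis from 0) of each member in each of the 10 libraries; symbols mark replicate numbers, and the black bar is the mean with its SD (n = 5). Fpr2KO libraries lie above all WT libraries for Urod and Cpox, whereas the Alas1 values of both groups lie between 33.5 and 41.9 CPM.

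Alas2 was the most abundant member and the most variable. In WT replicates 1 to 5 it was measured at 162, 176, 71.1, 288 and 182 CPM, and in Fpr2KO replicates 1 to 5 at 458, 397, 318, 219.6 and 292.5 CPM. WT replicate 3 was the lowest library, and 4 of 5 Fpr2KO libraries lay above all WT libraries. The group means were 176 ± 77.0 and 337 ± 92.7 CPM (SD, n = 5), 0.94 apart on the log2 scale (SE 0.34, 95% interval 0.17 to 1.7, edgeR FDR 0.428). The groups overlapped, as Fpr2KO replicate 4 fell below WT replicate 4. Alas2 (ENSMUSG00000025270) spans 150547375 to 150570638 of chromosome X in GRCm38 (plus strand).

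Alas1, the synthase gene used outside the erythroid lineage, did not share this pattern. WT replicates 1 to 5 were measured at 36.0, 41.9, 39.6, 38.0 and 38.3 CPM and Fpr2KO replicates 1 to 5 at 38.7, 40.1, 33.5, 33.95 and 38.2 CPM. The groups overlapped, although Fpr2KO replicates 3 and 4 lay below all WT libraries and WT replicate 2 above all Fpr2KO libraries. The means were 38.7 ± 2.20 and 36.9 ± 2.97 CPM (SD, n = 5) (log2 fold change -0.07, SE 0.08, 95% interval -0.24 to 0.10, edgeR FDR 0.788). The interval holds 0 and leaves out the estimate of every other member. Alas1 (ENSMUSG00000032786) spans 106233455 to 106248654 of chromosome 9 (minus strand).

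The ratio of the synthase genes followed Alas2. Per kb of annotated exon, Alas2 stood at 11.6, 10.8, 4.61, 19.5 and 12.2 times Alas1 in WT replicates 1 to 5. In Fpr2KO replicates 1 to 5 the ratio was 30.4, 25.4, 24.4, 16.6 and 19.7. The erythroid form was thus the more abundant transcript in each of the 10 libraries, including the macrophage isolates of WT mice. A ratio taken within a library does not depend on how libraries are scaled. With coding length in place of exon length, the ratios ran from 2.04 to 8.62 in WT and from 7.36 to 13.5 in Fpr2KO.

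Slc25a38 brings glycine into the mitochondrion for the synthases. It was measured at 24.8, 24.0, 25.9, 26.0 and 26.0 CPM in WT replicates 1 to 5 and at 29.5, 24.0, 30.5, 32.1 and 34.5 CPM in Fpr2KO replicates 1 to 5. Fpr2KO replicate 2 sat within the narrow WT range and the other 4 Fpr2KO libraries above it. Its log2 fold change was 0.25 (SE 0.10, edgeR FDR 0.422), and the coefficient of variation was 3.59% in WT and 13.0% in Fpr2KO.

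The cytosolic enzymes come next. Alad, 5-aminolevulinate dehydratase, condenses a pair of aminolevulinate molecules to porphobilinogen. It was measured at 10.9, 10.5, 11.6, 13.7 and 16.9 CPM in WT replicates 1 to 5 and at 25.6, 16.55, 20.3, 21.5 and 21.0 CPM in Fpr2KO replicates 1 to 5. Only the lowest Fpr2KO library, replicate 2, and the highest WT library, replicate 5, overlapped. Alad had the smallest p-value of the members and the 23rd smallest of all genes, with means of 12.7 ± 2.62 and 21.0 ± 3.22 CPM (SD, n = 5; log2 fold change 0.72, SE 0.15, edgeR FDR 0.112). Alad (ENSMUSG00000028393) spans 62509169 to 62519918 of chromosome 4 (minus strand).

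Urod, uroporphyrinogen decarboxylase, trims the side chains of the ring. Its WT replicates 1 to 5 held 20.9, 25.2, 21.3, 28.5 and 25.15 CPM, and its Fpr2KO replicates 1 to 5 held 42.8, 30.7, 35.2, 31.5 and 36.5 CPM. Every Fpr2KO library lay above every WT library. Of the members this held for Urod and Cpox, and of all genes tested for 0.825%, while 0 members lay below all WT libraries, where 0.566% of all genes did. The means of Urod were 24.2 ± 3.15 and 35.35 ± 4.82 CPM (SD, n = 5; log2 fold change 0.55, SE 0.11, edgeR FDR 0.112). Urod (ENSMUSG00000028684) spans 116989965 to 116994413 of the same chromosome (minus strand).

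Uros, uroporphyrinogen III synthase, closes the ring with the right isomer. Its values ran from 14.05 to 21.9 CPM in WT (median 16.7) and from 19.7 to 24.3 CPM in Fpr2KO (median 21.5). WT replicates 4 and 5 fell within the Fpr2KO range, and the other 3 WT libraries below it. The log2 fold change was 0.29 (SE 0.12, edgeR FDR 0.469).

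The last enzymes act in the mitochondrion. Cpox, coproporphyrinogen oxidase, was measured at 27.9, 29.4, 33.4, 40.5 and 43.5 CPM in WT replicates 1 to 5 and at 57.4, 49.2, 55.0, 46.0 and 46.3 CPM in Fpr2KO replicates 1 to 5. The groups did not overlap, although WT replicates 4 and 5 came close to the lowest Fpr2KO library, replicate 4. Means were 34.9 ± 6.84 and 50.8 ± 5.18 CPM (SD, n = 5; log2 fold change 0.54, SE 0.12, edgeR FDR 0.164). Cpox (ENSMUSG00000022742) spans 58670292 to 58717636 of chromosome 16 (plus strand).

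Ppox, protoporphyrinogen oxidase, makes the final porphyrin. Its values ran from 47.1 to 57.5 CPM in WT and from 54.3 to 70.4 CPM in Fpr2KO, and the groups differed by 0.27 on the log2 scale (SE 0.08, edgeR FDR 0.329). Of the Fpr2KO libraries, 4 lay above all WT libraries and replicate 2 did not.

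Fech, ferrochelatase, inserts the iron. It was measured at 56.8, 62.9, 41.9, 87.7 and 75.7 CPM in WT replicates 1 to 5 and at 118, 113, 98.9, 71.9 and 96.5 CPM in Fpr2KO replicates 1 to 5. WT replicate 3 was the lowest library and Fpr2KO replicate 4 the lowest of its group, as they were for Alas2. Means were 65.0 ± 17.6 and 99.65 ± 17.9 CPM (SD, n = 5; log2 fold change 0.62, SE 0.19, edgeR FDR 0.329).

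**Figure D2:**
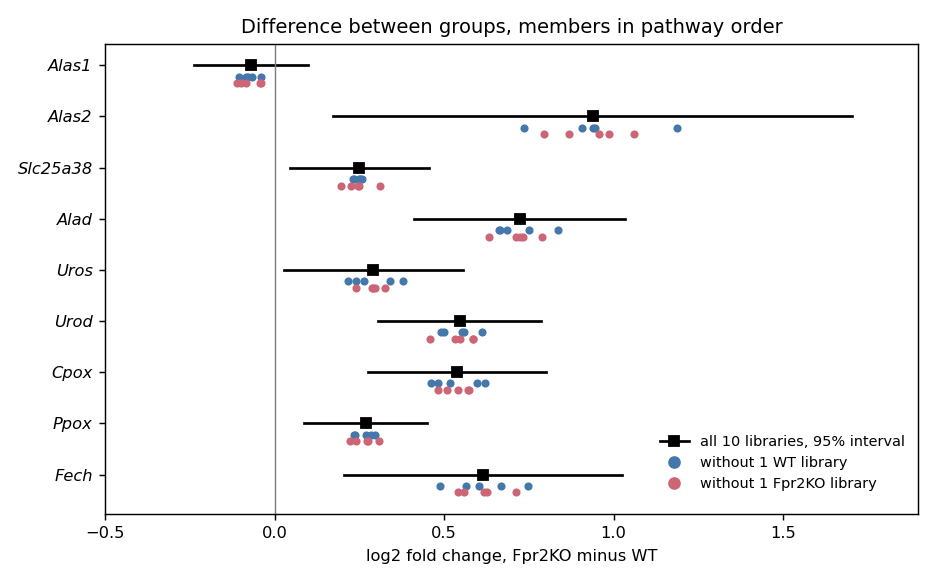
Log2 fold change of each member, Fpr2KO minus WT (horizontal axis), in pathway order: black squares and lines are the edgeR estimates from all 10 libraries with 95% intervals, and dots are the estimates with 1 library left out. All dots of 8 members lie above 0 and all dots of Alas1 lie below 0, between -0.11 and -0.04.

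Among the Fpr2KO libraries, replicate 2 was the lowest for Slc25a38, Alad, Urod and Ppox, and replicate 4 was the lowest for Alas2, Uros, Cpox and Fech. Mitochondrially encoded genes took 6.04% of the counts in Fpr2KO replicate 2 and between 3.22% and 3.99% in the other 4 Fpr2KO libraries, against 4.83% to 6.09% in WT. The part of this share in the member values was not tested.

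Reads over bases shared with neighbours could be counted for the wrong gene or left out of the counts, since the strand setting of the counting remains unstated. Without strand, reads from opposite strands cannot be told apart there. Exons of Ppox share 17.5% of their bases with B4galt3 on the opposite strand, and those of Alas2 share 12.9% with Apex2. B4galt3 was measured at 46.6 CPM in both groups (log2 fold change 0.00, edgeR FDR 0.997). Apex2 stood at 6.51 ± 1.00 CPM (WT) and 7.45 ± 0.993 CPM (Fpr2KO; SD, n = 5), far below Alas2 in each group. The 31-base sequences of Slc25a38 and Alad occur in no other annotated gene, and between 0.30% (Uros) and 16.2% (Ppox) of those of the other members do.

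Levels of different genes can be compared per length only. Per kb of annotated exon, Alas2 led in both groups, with 73.1 ± 32.0 CPM per kb in WT and 140 ± 38.6 in Fpr2KO (SD, n = 5), and its range lay above that of every other member. The other 8 members lay between 4.70 (Fech) and 11.5 (Ppox) CPM per kb in WT. In that order, Ppox, Urod, Slc25a38, Alad, Alas1, Cpox, Uros and Fech, each pair of neighbours overlapped in range. In Fpr2KO, Alas1 was the lowest of the 9 at 5.97 ± 0.482 CPM per kb, though it overlapped its neighbour Uros. The order depends on the length used: Fech has 13838 annotated exon bases and 1644 coding bases, and per kb of coding length it came second, with 39.6 CPM in WT and 60.6 CPM in Fpr2KO. Alas2 led on this scale too, at 99.8 and 191 CPM per kb, with a WT range that overlapped that of Fech.

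**Figure D3:**
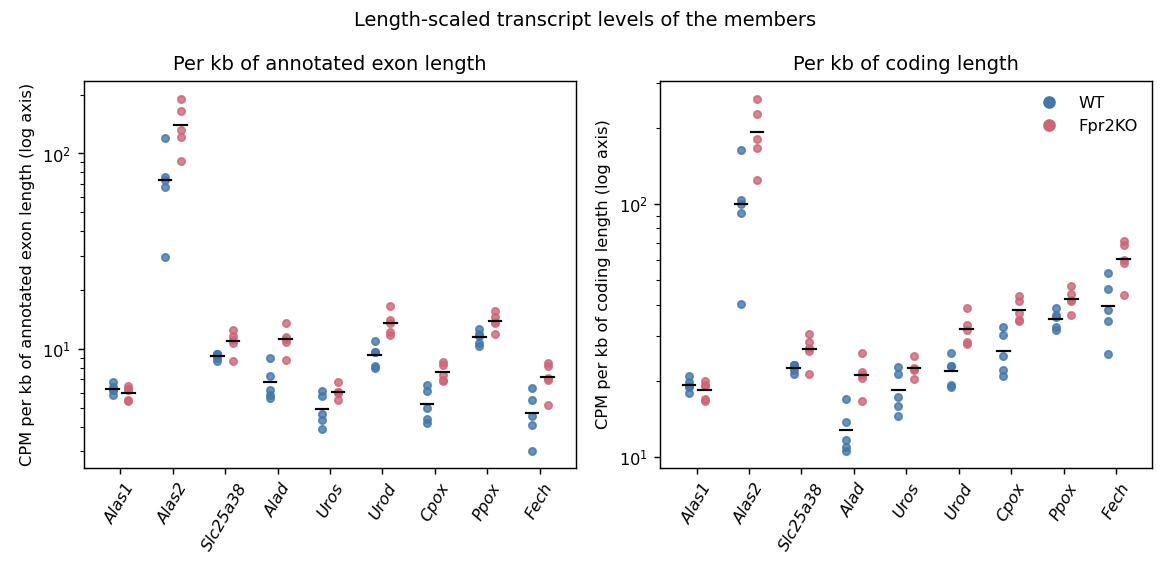
Levels of the 9 members in CPM per kb of annotated exon (left) and per kb of coding length (right), on log axes; dots are libraries and black lines group means. Alas2 has the highest group means on both scales, and the place of Fech changes with the length used.

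Markers of erythroid cells also had higher estimates in the Fpr2KO libraries. Of 25 erythroid markers, a list that holds no member, 24 were found and tested, and none was at 0. All 24 had higher estimates in Fpr2KO at an unadjusted p under 0.05, beside 4.88% of all genes, with a median log2 fold change of 1.65. The list was drawn up with earlier results of these data known, so this count is a description. By edgeR 0 of the 24 markers passed the FDR, by limma voom 0 and by DESeq2 3, beside 1.26% of all genes by DESeq2. Together they summed to between 1596 and 6468 CPM in WT and between 4624 and 10971 CPM in Fpr2KO. Gata1, the erythroid transcription factor, averaged 4.33 ± 1.05 CPM (WT) and 7.30 ± 1.22 CPM (Fpr2KO), the carbonic anhydrase Car1 3.83 ± 2.15 and 14.2 ± 4.09 CPM, and Cldn13 1.69 ± 1.35 and 5.25 ± 1.59 CPM (SD, n = 5). The erythroid marker score, the mean log2 CPM of the 24 genes, was 3.48, 2.94, 1.41, 4.35 and 4.53 in WT replicates 1 to 5. In Fpr2KO replicates 1 to 5 it was 5.76, 5.29, 5.25, 4.60 and 5.13. WT replicate 3 stood far below the other libraries, and the highest WT library came close to the lowest Fpr2KO library without reaching it.

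How closely each member followed this score was measured over the 10 libraries after subtracting group means, so that the difference between the groups did not enter. The p-values were adjusted over the 9 members. Alas2 (Pearson's r = 0.89, permutation p = 0.00295, adjusted to 0.0133; Spearman's rho = 0.82, permutation p = 0.00315, adjusted p = 0.0283) and Fech (r = 0.90, permutation p = 0.00236, adjusted p = 0.0133; rho = 0.86, permutation p = 0.00946, adjusted p = 0.0426) went with it. Without the 2 libraries farthest from the median of the centred score, WT replicates 3 and 5, r was 0.89 for Alas2 and 0.87 for Fech. Uros had r = 0.80 (permutation p = 0.0372, adjusted p = 0.112; rho = 0.84, permutation p = 0.0187, adjusted p = 0.0562). Urod, Cpox and Alad had r of 0.59, 0.58 and 0.54, with an adjusted permutation p of 0.166, 0.309 and 0.309. Ppox had r = 0.26, Slc25a38 r = -0.07 and Alas1 r = -0.08, with an adjusted permutation p of 0.63, 0.823 and 0.823. All these values share library and scaling with the score. The part of the erythroid markers in the differences between the groups was not tested.

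**Figure D4:**
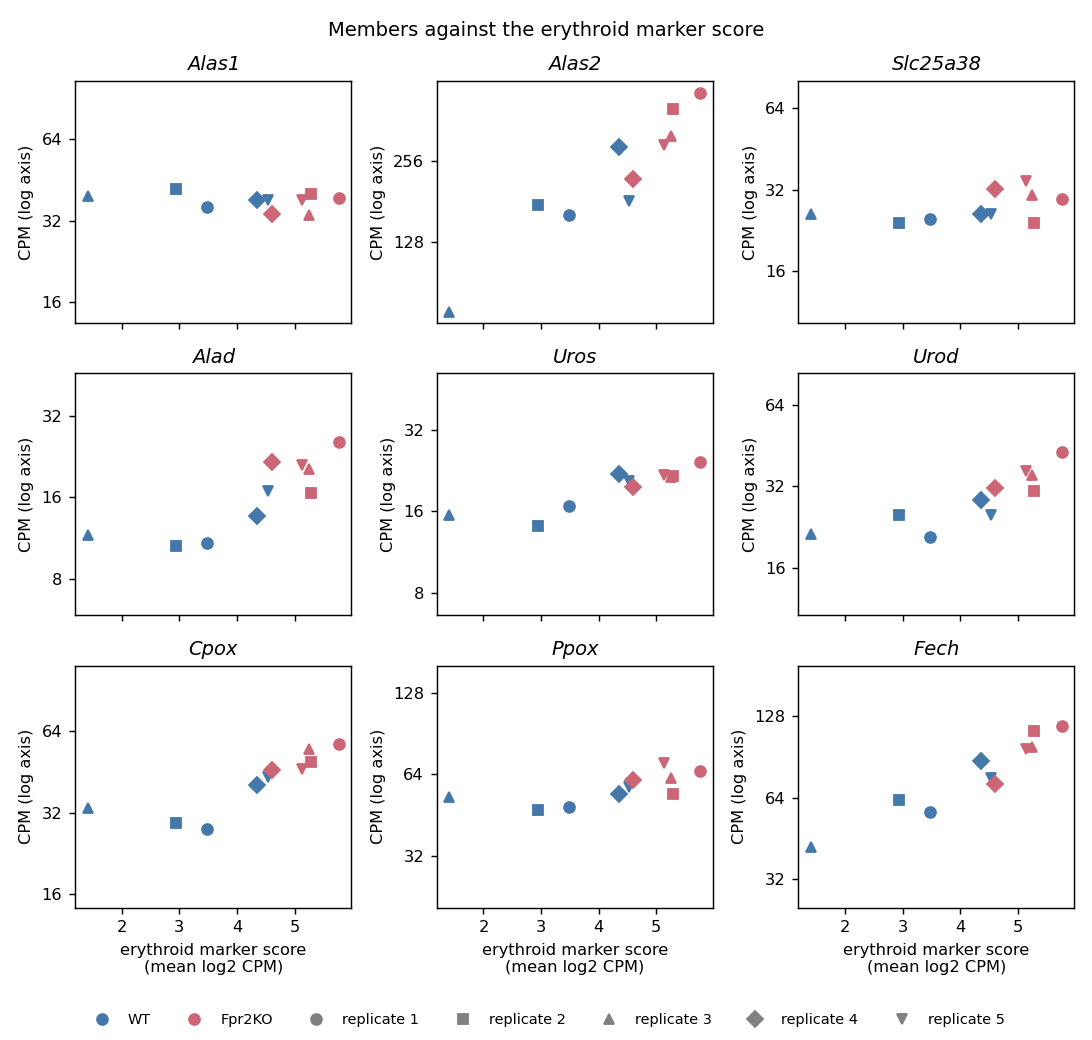
Level of each member in CPM (log axis, the same span of folds in each panel) against the erythroid marker score, the mean log2 CPM of 24 marker genes that are not members; each symbol is a library. Alas2 and Fech are lowest in WT replicate 3, which has the lowest score (1.41), whereas Alas1 keeps between 33.5 and 41.9 CPM over the whole range of scores.

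Among themselves the members formed 36 pairs, 28 of which had a correlation above 0 after group means were subtracted (median r 0.46). The same share was not taken over pairs of other genes, so whether it is particular to the members was not tested. The pair of Alas2 and Fech, the erythroid first step and the last step, had the highest value (r = 0.96, permutation p = 7e-05, adjusted p = 0.00252 over 36 pairs; rho = 0.90, permutation p = 0.0002, adjusted p = 0.0072). Without the 2 libraries farthest from the median of Alas2, WT replicates 3 and 4, r was 0.91. It was the single pair past an adjusted p of 0.05. Slc25a38 and Ppox had r = 0.79 (permutation p = 0.00913, adjusted p = 0.124; rho = 0.75, permutation p = 0.0321, adjusted p = 0.208), and without Fpr2KO replicates 2 and 5 this r was 0.48. Alas2 and Ppox had r = -0.01 (adjusted permutation p = 0.977).

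Promoter sequence was examined because GATA1 binds promoters of erythroid genes and 8 of the 9 members had higher estimates. The RefSeq table for GRCm38.p6 held 11 start sites for 8 of the members and none for Fech, which was not searched. The 250 bases before each site were searched on both strands for the forms of the GATA motif, namely AGATAA or AGATAG, and TGATAA or TGATAG. Of all 32851 windows of this length, 26.5% held at least 1 of these forms. Among the members, 3 of 11 windows did, a share close to that of all windows, so the matches are no trait of the members. They lay in the windows of Alas2 and Cpox and of the second start site of Uros, which lies inside the gene. The stretches below are shown because they hold these matches, written 5′ to 3′ on the strand of the gene with the matches in capitals, all of which read on the opposite strand. In Cpox an AGATAG and a TGATAA match overlap by 1 base. In Uros a TGATAA match is shown, and an AGATAG match farther upstream is not. The stretch of Alad, the member with the smallest p-value, is shown beside them and holds no match. It precedes the Alad start site at 62520063, and the other Alad start site is at 62519909. The start sites used for the stretches of Alad and of Cpox (58670208) lie outside the gene spans given above.
Alas2, chrX:150547267-150547366, plus strand: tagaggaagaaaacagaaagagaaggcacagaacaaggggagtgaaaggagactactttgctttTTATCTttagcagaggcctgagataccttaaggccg
Cpox, chr16:58670058-58670157, plus strand: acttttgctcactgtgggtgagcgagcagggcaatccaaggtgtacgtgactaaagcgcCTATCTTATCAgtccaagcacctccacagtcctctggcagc
Uros, chr7:133702551-133702580, minus strand: tctccctcagccTTATCAgtgacagagggc
Alad, chr4:62520064-62520163, minus strand: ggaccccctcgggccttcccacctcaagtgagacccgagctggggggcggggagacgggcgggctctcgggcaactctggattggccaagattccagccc

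The match of Alas2 starts 86 bases before its start site, those of Cpox 91 and 86 bases before, and those of Uros 205 and 68 bases before. Neither window of Alad nor either window of Alas1 held a GATA form. The CACC box form CCACACCC, bound by erythroid Krüppel-like factors, occurred in 3.2% of all windows and in none of the 11 member windows. Fech had no window. A match is a run of letters in this window and no measure of binding, and its absence says nothing about the factor.

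Genes listed under the transport of heme intermediates and mitochondrial iron were examined next, not all of which are transporters. Of these 12 genes, 10 had higher estimates and 5 of the 10 had an unadjusted p under 0.05, with a median log2 fold change of 0.25. By edgeR 0 passed the FDR, by limma voom 0 and by DESeq2 2. For this list and those below, the shares of all genes were 53.2% with a higher estimate and 1.26% past the FDR by DESeq2. At an unadjusted p under 0.05 by edgeR, 4.88% of all genes were higher and 4.92% lower. Slc25a37 (mitoferrin 1), which brings iron into the mitochondria of erythroid cells, averaged 146 ± 29.2 CPM (WT) and 208 ± 19.9 CPM (Fpr2KO; SD, n = 5), with a log2 fold change of 0.51 ± 0.12 (SE). Abcb10, a mitochondrial transporter that stabilises mitoferrin 1, averaged 25.2 ± 4.42 and 37.2 ± 6.38 CPM (log2 fold change 0.56, SE 0.14). Abcb6, a porphyrin transporter, averaged 1.81 ± 0.445 and 2.85 ± 0.337 CPM (log2 fold change 0.65, SE 0.21).

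Substrate supply was read from enzymes and transporters of glycine and succinyl-CoA. Among these 12 genes, 1 had a higher estimate at an unadjusted p under 0.05 and 0 a lower one, 0 passed the FDR by edgeR or limma voom and 1 by DESeq2, and the median log2 fold change was 0.07. The gene past that p was Slc6a9, the plasma membrane glycine transporter GlyT1, at 3.95 ± 1.65 CPM (WT) and 8.97 ± 2.51 CPM (Fpr2KO; SD, n = 5), 1.18 apart on the log2 scale (SE 0.27, edgeR FDR 0.171). The serine hydroxymethyltransferase Shmt2, which makes glycine in mitochondria, had an estimate of 0.23 on the log2 scale (SE 0.15), and the succinyl-CoA ligase subunit Suclg1 one of 0.11 (SE 0.08).

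Iron-sulfur clusters are needed by ferrochelatase. Of 12 assembly genes, 10 had higher estimates, where 53.2% of all genes did, and 3 of the 10 had an unadjusted p under 0.05. The median log2 fold change was 0.10, with 0 past the FDR by edgeR or limma voom and 1 by DESeq2. Glrx5, a mitochondrial glutaredoxin required for heme synthesis in red cells, averaged 20.7 ± 4.29 and 30.5 ± 4.87 CPM (SD, n = 5; log2 fold change 0.56, SE 0.14). The log2 fold change was 0.35 (SE 0.11) for the cochaperone Hscb and 0.32 (SE 0.14) for the assembly factor Isca1.

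Genes of iron uptake and iron regulation were examined in the same way. Of 12 genes, 8 had higher estimates, 0 of them at an unadjusted p under 0.05, and 2 of the 4 with lower estimates had one, while the median log2 fold change was 0.01. By edgeR and limma voom 0 passed the FDR, and by DESeq2 1. The transferrin receptor gene Tfrc averaged 96.8 ± 20.1 CPM (WT) and 119.7 ± 17.5 CPM (Fpr2KO), with a log2 fold change of 0.31 ± 0.14 (SE). Steap4, a metalloreductase, averaged 3.76 ± 1.04 and 1.52 ± 0.507 CPM (-1.31 on the log2 scale, SE 0.27, edgeR FDR 0.112). Fbxl5, the iron-sensing ubiquitin ligase subunit, had a log2 estimate of -0.25 (SE 0.09).

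Genes listed under the breakdown and export of heme, the work of red pulp macrophages, came next, not all of which do this work themselves. Of 12, 2 had higher and 1 a lower estimate at an unadjusted p under 0.05, with 0 past the FDR by edgeR, DESeq2 or limma voom and a median log2 fold change of 0.09. Bach1, the heme-sensing repressor of heme oxygenase 1, averaged 98.2 ± 11.8 CPM (WT) and 78.1 ± 7.52 CPM (Fpr2KO; SD, n = 5), a log2 difference of -0.33 (SE 0.10, edgeR FDR 0.265). The log2 fold change was 0.30 (SE 0.13) for biliverdin reductase B (Blvrb) and 0.74 (SE 0.30) for the quinone reductase Nqo1. Of 15 red pulp macrophage markers, 1 was higher at an unadjusted p under 0.05, the haemoglobin scavenger receptor Cd163 (log2 fold change 0.46, SE 0.10), which DESeq2 also called, and their median log2 fold change was 0.00.

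Of 14 regulators of the pathway, 6 had higher and 1 a lower estimate at an unadjusted p under 0.05, with 0 past the FDR by edgeR or limma voom, 2 by DESeq2 and a median log2 fold change of 0.13. Zfpm1, the GATA1 cofactor, averaged 15.2 ± 3.08 and 25.5 ± 1.59 CPM (SD, n = 5), 0.75 apart on the log2 scale (SE 0.13, edgeR FDR 0.0565). Gata1, which is also among the erythroid markers together with Tal1 and Klf1, had an estimate of 0.75 on the log2 scale (SE 0.18), and the lower gene was Bach1. Among 12 genes for heme use, 0 were higher and 1 was lower at an unadjusted p under 0.05, with 0 past the FDR by edgeR, DESeq2 or limma voom. The lower gene was Cybb, the heme-binding subunit of the phagocyte oxidase (log2 fold change -0.29, SE 0.10). The log2 fold change was 0.20 (SE 0.10) for cytochrome c1 (Cyc1) and 0.13 (SE 0.09) for cytochrome b5 (Cyb5a).

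Markers of 3 other cell types in the isolates are given for comparison. Of 12 neutrophil markers, 7 had lower estimates at an unadjusted p under 0.05 and 0 higher ones (0 past the FDR by edgeR and limma voom, 3 by DESeq2), with sums of 623 to 1072 CPM in WT and 376 to 693 CPM in Fpr2KO. Of 8 megakaryocyte and platelet markers tested, 4 had lower estimates at that p (0 past the FDR by edgeR and limma voom, 1 by DESeq2), with sums of 25.7 to 50.9 and 20.9 to 33.3 CPM. Of 8 B cell markers, 3 had higher ones (0 past the FDR by edgeR, DESeq2 and limma voom). Their part in the member values was not tested.

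For each member, the 2 genes whose group-centred log2 CPM followed it most closely over the 10 libraries were taken from 11099 genes, by Pearson's r as a description. As the largest of 11099 values over 10 libraries, these r are high by selection, and they were not tested. Of the genes taken, Bpgm, bisphosphoglycerate mutase, followed Alas2 (0.99), and Zfp958 followed Fech (0.96). Uros was followed by Fhdc1 (0.99) and Cldn13 (0.94), the latter among the erythroid markers. Slc25a38 was followed by Bag6 (0.99) and Unc13d (0.98), and Ppox by Cnot3 (0.96) and Fiz1 (0.96). For Alad these were Elmo3 (0.94) and Mrps17 (0.93), for Urod Galnt12 (0.95) and Hmox2 (0.94), for Cpox Zfp790 (0.94) and Gle1 (0.94), and for Alas1 Bambi (0.94) and D6Wsu163e (0.92).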

How the data were processed

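The authors deposited raw read counts per Ensembl gene for 10 libraries of polyadenylated RNA (NEBNext Ultra II RNA kit, per the labels). HTSeq 0.10.0, FastQC 0.10.1 and the builds mm10 and GRCm38 are named per the submitters' processing notes; the aligner, annotation release and strand setting were not given in the sources used here. Symbols, lengths and coordinates came from GENCODE M21, which matched 52133 of 55414 identifiers; the rest held at most 0.135% of a library. Counts were fitted with edgeR 4.0.16 in R 4.3.3 (filterByExpr, TMM, robust quasi-likelihood test, two-sided, no covariate, Benjamini-Hochberg over 14669 genes, FDR threshold 0.05), after a test on simulated data. With the same spread simulated for all genes, that test recovered 44% of 1.5-fold changes and 95.8% of 2-fold changes. A gene that does not pass the FDR is thus not shown to be unchanged. SE is the log2 fold change divided by the square root of F. CPM uses TMM-scaled library sizes; log2 CPM used a prior count of 2. Correlations used 100000 permutations within groups (over all libraries where group means were kept). DESeq2 1.42.0 and limma 3.58.1 (voom) were alternatives, as were other scalings, other filters and leaving out each library. Within groups, libraries differed by more than sampling noise (chi-square per degree of freedom 12.4 to 68.2). Total counts of 15865820 to 19060188 gave each member between 171 and 7043 reads per library. Genes named are all members, up to 3 of each list by p-value (further genes were chosen after their values were seen: Adgre1, Tal1, Klf1, Ddx3y, Xist and the overlapping genes), and the 2 most alike genes per member among those averaging at least 1 log2 CPM (1 such gene is not reported here). Members and lists were chosen with earlier results of these data known.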

Additional observations from a re-analysis of the deposited data

How the results depend on the processing

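The 9 members kept the sign of their log2 fold change in all 18 alternatives each (162 values), and 10 of these values passed the FDR where the reported one did not. The count of members past the FDR, 0 as reported, was 3 with no filter (Alad, Cpox and Urod, beside 0.217% of all genes), 3 with DESeq2, 1 with the replicate block (Alad, beside 0.436%), and between 0 and 2 when 1 library was left out. The count of all genes past the FDR, 10 as reported, was 62 with no filter, 185 with DESeq2, 64 with the replicate block, and ran from 8 to 51 when 1 library was left out. It was highest without WT replicate 5 and 26 without WT replicate 4 or Fpr2KO replicate 2. The cause was not tested. Libraries with the same replicate number did not all deviate together (r from -0.24 to 0.29 over 5 numbers, with 2 of 5 WT libraries closest to their own number). The r was above 0 for numbers 2 (0.29) and 4 (0.25) and below 0 for the others. The number is not taken as a pairing, though 5 values cannot decide this. When 1 library was left out, the log2 fold change of Alas2 ran from 0.73 (without WT replicate 3) to 1.19 (without WT replicate 4), that of Alad from 0.63 to 0.84 and that of Alas1 from -0.11 to -0.04. Without subtracting group means, the correlation of Slc25a38 with the erythroid marker score was 0.47 in place of -0.07. Those of Alad, Uros, Urod, Cpox and Ppox then passed an adjusted permutation p of 0.05. These correlations include the difference between the groups, and both lists were chosen with earlier results known. They are thus no independent test. With group means subtracted, leaving haemoglobin genes out of the score changed no call by Pearson's r. The adjusted permutation p of Spearman's rho then became 0.058 for both Alas2 and Fech. Per-length levels and their order depend on the annotated length.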
